A study of Mus musculus with 20 samples.

Results

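The genes described here are 10 AP-1 and immediate early genes of the mouse eyecup: the FOS family (Fos, Fosb, Fosl1, Fosl2), the JUN family (Jun, Junb, Jund), Atf3, Egr1 and Ier2. They were taken by symbol from the 24411 genes of the deposited table, and all 10 were among the 18807 genes tested. The members were chosen by name with earlier results of these data known, and so on measured values: the fold changes with which immediate early genes stood out between VAS Stra6-/- and VAS WT. That comparison is a description: no p-values are printed for it, and nothing is read from its counts of called members.

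C57BL/6 mice (the Stra6-/- line is given as C57BL/6J in the study's methods), either WT or Stra6-/- (lacking the retinol transporter STRA6), were given from weaning, for 12 weeks, a vitamin A sufficient diet (VAS, 4 IU/g) or a vitamin A deficient diet (VAD, 0 IU/g). All had been with dams on standard chow until weaning. Per the study's methods, eyecups of removed eyes were incubated warm in dispase, and the retina was peeled off after this digestion. The RPE–choroid of 2 eyecups was pooled for each RNA sample, with 5 samples in each of the 4 groups. The part of this handling in the levels below was not tested. The unit used below, the normalized value, is the gene's read count divided by 1 size factor per library. Differences were tested with limma on log2(value + 1) with Benjamini-Hochberg adjustment over all tested genes, and a gene was called at an adjusted p under 0.05. The spread of each gene was estimated over all 4 groups together, so an SE also reflects groups outside the comparison. Fold changes on this scale are understated for genes with low values.

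The 20 libraries held 13331903 to 21878614 reads. Mean Stra6 was 2591 in VAS WT, 986 in VAD WT and 629 in VAS Stra6-/-, but 2163 in the libraries labelled VAD Stra6-/-, where it goes against the label. Replicates 2 and 4 of VAD WT stood apart from replicates 1, 3 and 5: the means of Xist, a transcript of the inactive X chromosome, were 11340 and 201, and those of the Y-linked gene Ddx3y were 77.8 and 1080. Stra6 was at 1340 and 1529 in replicates 2 and 4 and at 669 to 697 in the other 3, which overlaps the VAS Stra6-/- range of 564 to 694, although they are labelled WT. Xist and Ddx3y also separated VAS WT (means 19.96 and 1109) from VAS Stra6-/- (16448 and 0.203), and both were present in the libraries labelled VAD Stra6-/- (4011 and 870). Genotype and sex-linked transcripts can therefore not be told apart between the VAS groups. Against the tissue label, 19 measured markers of surface epithelium and cornea summed to 812276 to 963737 per library in VAS WT and to 37084 to 47084 in the libraries labelled VAD Stra6-/-. The sums of 20 RPE markers were 198340 to 221978 and 795400 to 858419 in the same 2 groups. RPE markers were thus present in all groups, together with corneal and surface keratin genes that are not RPE genes. In bulk tissue, fewer cells of a type and less RNA per cell cannot be told apart.

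AP-1 is a family of transcription factors that bind DNA as dimers through a basic leucine zipper. JUN proteins can pair with each other or with FOS proteins, whereas FOS proteins need a partner. Immediate early genes are transcribed within minutes of a stimulus such as a growth factor or cell stress, without new protein synthesis, and most of their mRNAs are short-lived.

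The promoters are shown because a signal reaches these genes partly through short elements upstream of the start site. RefSeq promoters (GRCm38.p6) matched 7 of the 10 members by symbol: Fos, Fosb, Fosl2, Jun, Junb, Jund and Atf3. Their start sites do not all match the gene bounds given below. The 150 bases upstream of the Jund start ended at chr8:70697738, before the gene's first base at 70698949. For Atf3 and Fosl2 those bases lay inside the gene bounds, next to starts at about chr1:191183334 and chr5:32136471. In windows running from 250 bases before to 50 after the start, the letters TGACG, the core bound by CREB and ATF proteins, were found on either strand in 4 of the 7 members and in 20.8% of all 32851 promoters. The octamer TGACATCA, looked for after the sequences had been seen, was present in 1 member, Jun, and in 3.62% of all promoters. GCGNGGGCG, the EGR site, was in 2 members (Fosl2 and Fosb) and in 5.55% of promoters. The full element TGACGTCA, which contains that core, was in none of the 7 (1.79% of promoters), nor was the AP-1 site TGANTCA (7.81%) or the CArG box of serum response factor (1.63%). Bases further than 250 upstream were not searched, so an absence covers this window only and not the gene. These matches are descriptions of letters and not evidence of binding.
The 150 bases upstream of the start sites of the 5 members with TGACG or TGACATCA follow 5′ to 3′, with those letters on either strand in capitals.
Fos, chr12:85473740-85473889, + strand: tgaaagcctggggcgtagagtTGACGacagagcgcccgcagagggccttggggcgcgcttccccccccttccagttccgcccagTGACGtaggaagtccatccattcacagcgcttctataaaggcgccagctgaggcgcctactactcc
Fosb, chr7:19310046-19310195, - strand: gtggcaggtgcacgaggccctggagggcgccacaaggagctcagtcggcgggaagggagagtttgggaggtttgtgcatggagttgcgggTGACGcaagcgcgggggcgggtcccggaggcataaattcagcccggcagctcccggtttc
Jun, chr4:95052223-95052372, - strand: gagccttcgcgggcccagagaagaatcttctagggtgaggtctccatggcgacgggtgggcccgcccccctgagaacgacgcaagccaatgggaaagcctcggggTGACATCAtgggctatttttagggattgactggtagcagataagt
Junb, chr8:84978749-84978898, - strand: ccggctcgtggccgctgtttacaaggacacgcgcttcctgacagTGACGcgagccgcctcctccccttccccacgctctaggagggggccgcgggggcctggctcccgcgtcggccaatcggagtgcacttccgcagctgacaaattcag
Atf3, chr1:191183334-191183483, - strand: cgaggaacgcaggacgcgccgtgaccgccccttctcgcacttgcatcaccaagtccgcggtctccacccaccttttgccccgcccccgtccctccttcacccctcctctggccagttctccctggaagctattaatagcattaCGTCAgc
In Fos the TGACG letters began 129 and 66 bases upstream of the start, in Junb 106, in Fosb 60 and in Atf3, on the reverse strand, 7. The octamer of Jun began 45 bases upstream.

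Fos encodes the founding FOS protein (GRCm38 chr12:85473890-85477273, + strand). In replicates 1 to 5, its normalized value was 912, 885, 926, 972 and 922 in VAS WT. The VAS Stra6-/- libraries had 2908, 2999, 3078, 2942 and 2887. The VAS Stra6-/- libraries all exceeded the VAS WT ones, with means of 2963 ± 76.9 and 923 ± 31.4 (SD, n = 5), a 3.21-fold ratio. In VAD WT the values were 691, 2581, 587, 2699 and 720, and in the libraries labelled VAD Stra6-/- they were 1221, 1166, 1306, 1217 and 1286. Replicates 2 and 4 of VAD WT lay above all VAS WT libraries and the other 3 below all of them, so that the group's mean of 1456 ± 1083 describes none of its libraries. Within VAS WT the variance of Fos was 1.10 times that of counting error, against a median of 6.83 for the 6916 genes with a mean of at least 500 there.

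Fosb (chr7:19302696-19310051, - strand) encodes a second early FOS protein. Its normalized value was 238, 263, 286, 172 and 268 in VAS WT, and 1030, 990, 1007, 983 and 1090 in VAS Stra6-/-. The groups did not overlap, and the ratio of the means was 4.16. VAD WT had 33.0, 451, 36.9, 379 and 87.1, and the libraries labelled VAD Stra6-/- had 350, 336, 381, 334 and 362. Replicates 2 and 4 of VAD WT again lay above every VAS WT library and the other 3 below.

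Fosl1 encodes a FOS-related protein without the transactivation domain of FOS (chr19:5447547-5455946, + strand). It had the largest ratio of the 10 between the VAS groups and rests on the lowest counts. In VAS WT only replicate 1 had reads, with a value of 5.89, and 4 libraries were at 0, where the limit that a count of 0 allows (3 reads) was a value of 2.68 to 2.93. The VAS Stra6-/- libraries had 222, 237, 240, 215 and 256. All 5 lay far above the VAS WT values. VAD WT had 0 in replicates 1, 3 and 5 and 24.7 and 14.6 in replicates 2 and 4, while the libraries labelled VAD Stra6-/- had 64.5, 100, 51.2, 124 and 35.5. Fosl1 shares 1163 exon bases with Ccdc85b on the opposite strand, and strandedness of the counting is not given in the sources used here, so how reads in the shared bases were assigned is not known. Ccdc85b averaged 1463 in VAS WT, where Fosl1 was at 0 in 4 libraries, and 1483 in VAS Stra6-/-.

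Fosl2, the other FOS-related gene (chr5:32135801-32157842, + strand), followed a different pattern. Its normalized value was 3022, 2832, 2806, 3244 and 2854 in VAS WT, and 6109, 6462, 6154, 6249 and 6079 in VAS Stra6-/-. The ranges were apart by a ratio of means of 2.10. VAD WT had 3966, 2752, 3798, 2902 and 3915, and the libraries labelled VAD Stra6-/- had 1259, 1411, 1371, 1436 and 1145. Here replicates 2 and 4 were the lowest of VAD WT, opposite to Fos and Fosb, and the libraries labelled VAD Stra6-/- were below all others.

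Jun (chr4:95049034-95052222, - strand), the founding gene of the JUN family, had normalized values of 1827, 1795, 1647, 1745 and 1578 in VAS WT. VAS Stra6-/- libraries had 6666, 6591, 7356, 7054 and 6988. Every one of them was above VAS WT, with a ratio of means of 4.03. VAD WT had 988, 3231, 983, 3167 and 1015, and the libraries labelled VAD Stra6-/- had 1623, 1530, 1682, 1635 and 1623. No VAD WT library fell inside the VAS WT range.

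Junb, which encodes a JUN protein that can oppose JUN (chr8:84974484-84978718, - strand), was at 3405, 3876, 3408, 3342 and 3577 in VAS WT. The libraries of VAS Stra6-/- were at 9072, 8587, 8374, 8832 and 9346. These groups were apart, with a ratio of means of 2.51. VAD WT had 3840, 5856, 3927, 6302 and 4191, and the libraries labelled VAD Stra6-/- had 2814, 2457, 2881, 2414 and 2528, below every other library. Jund (chr8:70698949-70700616, + strand), which is expressed more evenly than its relatives in most tissues, varied least between group means, which were 4933 ± 555, 4120 ± 1004, 5311 ± 186 and 5709 ± 817 (SD, n = 5) in VAS WT, VAD WT, VAS Stra6-/- and the libraries labelled VAD Stra6-/-. The ranges of all 4 groups overlapped, and the last mean includes replicate 5 at 7164 beside 5218 to 5432 in the other 4 libraries.

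Atf3, a stress-induced ATF protein that can pair with JUN (chr1:191170296-191218039, - strand), had normalized values of 208, 213, 205, 208 and 235 in VAS WT. In VAS Stra6-/- they were 831, 831, 826, 912 and 768, a ratio of means of 3.90. These ranges were far apart. VAD WT had 68.4, 268, 121, 332 and 100, and the libraries labelled VAD Stra6-/- had 612, 687, 712, 601 and 591. Atf3 differed from Fos and Jun in that the libraries labelled VAD Stra6-/- stayed well above every library of VAD WT.

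Egr1 (chr18:34859823-34864984, + strand), a zinc finger factor outside AP-1, had 3278, 3193, 3102, 3008 and 3132 in VAS WT and 4772, 4734, 5316, 4803 and 4882 in VAS Stra6-/-. The groups did not overlap, but the ratio of the means was only 1.56. VAD WT had 737, 4588, 668, 4363 and 755, and the libraries labelled VAD Stra6-/- had 2362, 2103, 2227, 2359 and 2339. The means within VAD WT were 4476 for replicates 2 and 4 and 720 for the other 3, above and below all VAS WT libraries. Ier2 (chr8:84661331-84662852, - strand), which encodes a small nuclear early response protein, was 1736 to 1960 in VAS WT, 1620 to 2155 in VAD WT, 2537 to 2786 in VAS Stra6-/- and 727 to 972 in the libraries labelled VAD Stra6-/-. VAD WT and VAS WT overlapped, and the other 2 groups lay above and below them.

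**Figure D1:**
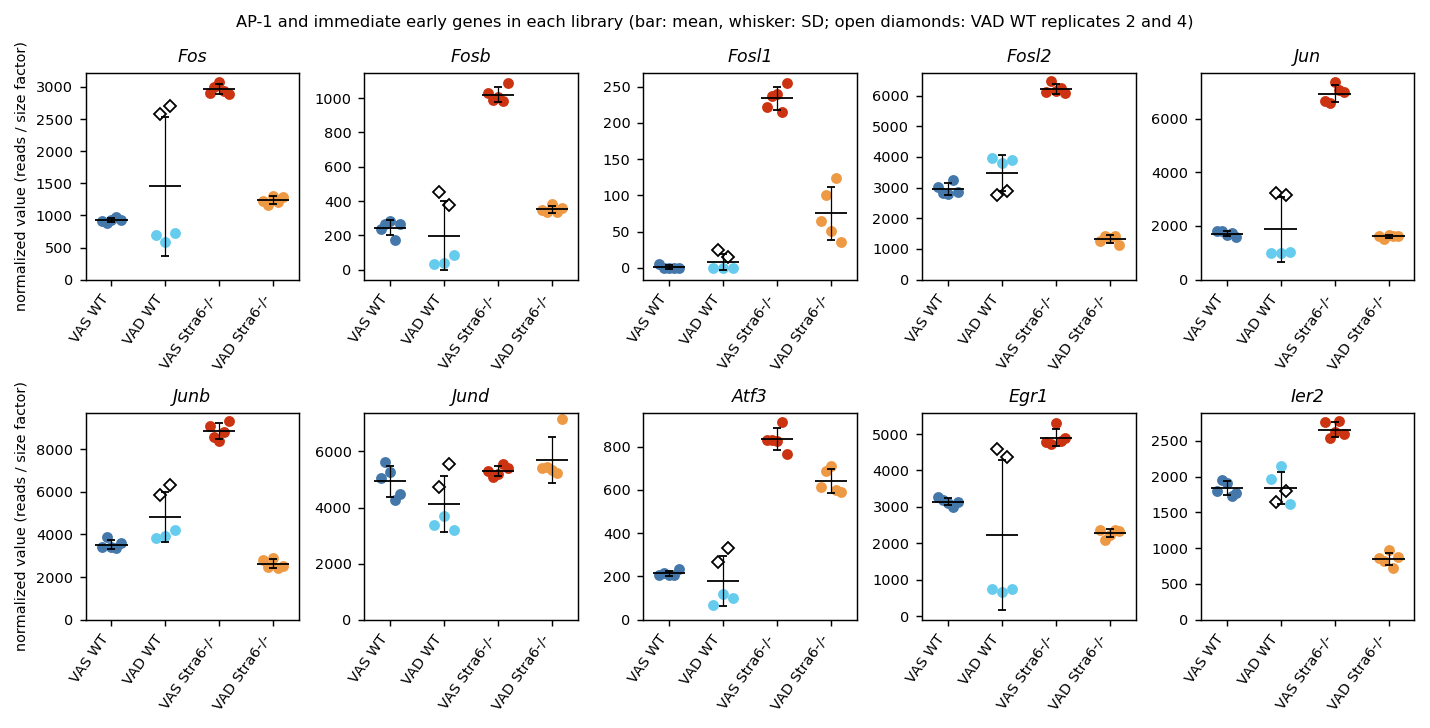
Normalized value (reads divided by a size factor, linear axis from 0) of each member in each library by group, with bar and whisker for mean and SD (n = 5) and open diamonds for VAD WT replicates 2 and 4. VAS Stra6-/- is above VAS WT without overlap in 9 panels, and for 8 members both diamonds lie above the other VAD WT points.

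The first comparison asks what loss of Stra6 on the sufficient diet goes with, and is a description because the members were listed for it. The median log2 fold change was 1.51 over the 10 members and 0.02 over all tested genes. By size, Fosl1 differed by 7.32 (SE 0.81) on the log2 scale (5.63 with a pseudocount of 4 and 8.14 with 0.5), Fosb by 2.07 (SE 0.51), Jun by 2.01 (SE 0.26), Atf3 by 1.96 (SE 0.28), Fos by 1.68 (SE 0.31), Junb by 1.33 (SE 0.11), Fosl2 by 1.07 (SE 0.09), Egr1 by 0.64 (SE 0.41), Ier2 by 0.53 (SE 0.08) and Jund by 0.11 (SE 0.13). As counts that the choice of members favours, and from which nothing is read, 8 of 10 were called higher (15.9% of all tested genes were) and 0 lower (10.8%). Every library was above in 9 of 10 (19.3% of all genes) and below in 0 (13.2%), with Jund the exception. Egr1 was among those 9 but was not called, and it was called with only the 2 groups in the fit. In that fit the SE was 0.03 for Fos and 0.04 for Egr1, against 0.31 and 0.41 above. Cell markers differed with the members: all 12 skeletal muscle markers were called higher and all 10 cone markers lower, and the surface epithelium and cornea markers (9 of 19 higher, 3 lower) summed to 1142686 to 1186337 in VAS Stra6-/-. Their part in the members' difference was not tested.

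On the deficient diet, the libraries labelled VAD Stra6-/- differed from VAD WT in both directions. The 4 members called higher were Fosl1 (log2 fold change 4.38, SE 0.81, adjusted p = 9.08e-05), Atf3 (2.09, SE 0.28, adjusted p = 1.60e-06), Fosb (1.63, SE 0.51, adjusted p = 0.00950) and Jund (0.49, SE 0.13, adjusted p = 0.00220). The Fosb call was lost in edgeR (0.78, adjusted p = 0.183) and DESeq2 (0.83, adjusted p = 0.214) on recovered reads and with only the 2 groups in the fit (adjusted p = 0.10002). Jund kept its call in those fits, but its ranges overlapped. With VAD WT replicates 2 and 4 and not the others, Jund was at 0.14 and not called (limma, adjusted p = 0.314). The 3 called lower were Fosl2 (-1.38, SE 0.09, adjusted p = 6.80e-11), Ier2 (-1.11, SE 0.08, adjusted p = 1.95e-10) and Junb (-0.85, SE 0.11, adjusted p = 1.44e-06). Egr1, Fos and Jun were not called (0.61, 0.10 and 0.03, adjusted p = 0.218, 0.806 and 0.952). The backgrounds were 26.2% higher and 29.6% lower, so 4 and 3 of 10 are near the share of all genes. Only Fosl1 and Atf3 had every library above (18.3% of genes) and Fosl2, Ier2 and Junb every library below (19.0%). Without VAD WT replicates 2 and 4, 7 members were called higher (30.7% of genes) and 3 lower (32.5%). With those 2 libraries and not the other 3, 2 were higher (23.4%) and 6 lower (28.8%). Fos changed from 0.90 (adjusted p = 2.39e-11) to -1.09 (adjusted p = 2.88e-12) between those fits. The 2 sets of VAD WT libraries were set apart by values in these same data, so these p-values are no independent support. In the same comparison all 19 surface epithelium and cornea markers were lower, 19 of 20 RPE markers higher, 12 of 13 macrophage and leukocyte markers higher, 9 of 11 fibroblast and sclera markers higher, 5 of 10 endothelium markers higher, 10 of 14 rod and 9 of 10 cone markers lower, and all 12 muscle markers higher.

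The comparison of the WT diets also uses the VAS WT values, which are part of the comparison the members were listed for. That choice favours higher values in VAD WT, so the results are no independent support for a direction. Between the WT diets 1 member was called, Junb, which was higher in VAD WT (log2 fold change 0.42, SE 0.11, adjusted p = 0.0206). Without VAS WT replicate 1, 3 or 4 its adjusted p was 0.0514, 0.0503 or 0.0522. The other 9 were not called, with adjusted p from 0.114 (Egr1, -1.07) to 0.983 (Ier2, -0.01). The share called was 3.29% of all genes higher and 5.50% lower, and in 0 of 10 members did the groups lie apart (2.13% of genes above, 4.21% below). The 2 subsets of VAD WT gave opposite calls. They were set apart by values in these same data and not by the labels, so these calls are no independent support. Without replicates 2 and 4, Fos (-0.48), Fosb (-2.32), Jun (-0.79), Jund (-0.52), Atf3 (-1.18) and Egr1 (-2.13) were lower and Fosl2 (0.40) and Junb (0.18) higher, at backgrounds of 20.3% lower and 17.6% higher. With replicates 2 and 4 only, Fos (1.51), Fosb (0.77), Fosl1 (3.76), Jun (0.90), Junb (0.79), Atf3 (0.48) and Egr1 (0.51) were higher (17.1% of genes) and 0 lower (15.7%). Other marker sums moved with the split. Surface epithelium and cornea markers summed to 506443 to 510428 in replicates 2 and 4 and to 1331555 to 1369760 in the other 3, RPE markers to 139885 to 143226 and 69340 to 75235, and fibroblast and sclera markers to 167629 to 171100 and 49458 to 51765. Rod markers summed to 356409 to 356664 and 134967 to 139375, and muscle markers to 16804 to 17973 and 4660 to 4959. Whether they or the sex-linked transcripts contribute to the members' split was not tested.

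**Figure D2:**
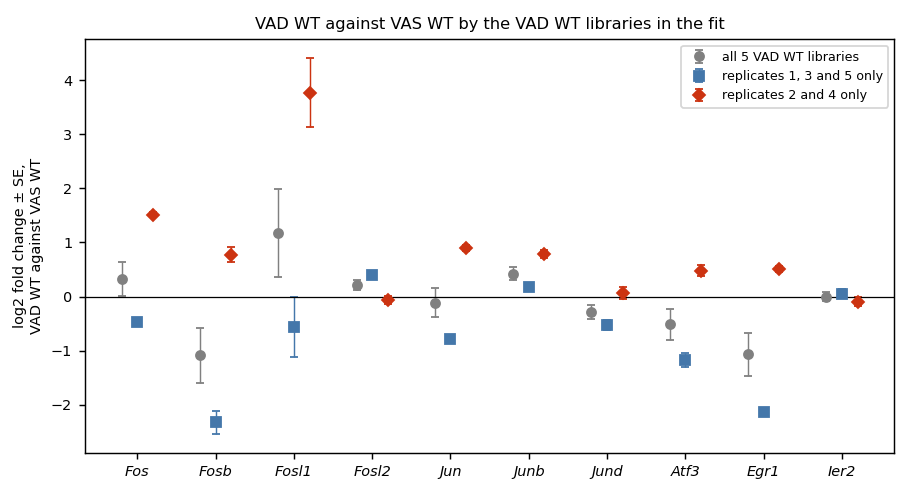
Log2 fold change (with SE) of VAD WT against VAS WT, fitted with all 5 VAD WT libraries (grey), with replicates 1, 3 and 5 (blue) or with replicates 2 and 4 (red). Fos, Fosb, Jun, Atf3 and Egr1 were called in opposite directions in the 2 subsets, whereas Ier2 stays near 0 in all 3 fits.

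Against VAS Stra6-/-, most members had lower values in the libraries labelled VAD Stra6-/-. The VAS Stra6-/- values are also part of the comparison the members were listed for. That choice favours lower values here, so they are no independent support for a direction. In all, 7 were called lower (28.8% of genes) and 0 higher (24.4%), at a median of -1.59 over the members and -0.07 over all genes. These were Fosl2 (-2.23, SE 0.09, adjusted p = 2.17e-14), Jun (-2.10, SE 0.26, adjusted p = 6.46e-07), Junb (-1.76, SE 0.11, adjusted p = 2.02e-11), Ier2 (-1.65, SE 0.08, adjusted p = 2.80e-13), Fosb (-1.53, SE 0.51, adjusted p = 0.0147), Fos (-1.26, SE 0.31, adjusted p = 0.00162) and Egr1 (-1.11, SE 0.41, adjusted p = 0.0262). Fosl1 (-1.76, adjusted p = 0.0732) and Atf3 (-0.38, adjusted p = 0.269) missed the threshold although each of their libraries was below every VAS Stra6-/- library, and both were called with only these 2 groups in the fit. All libraries were below in 9 members (26.8% of genes) and above in 0 (24.5%), and Jund (0.09, adjusted p = 0.559) overlapped. The call for Egr1 was lost without VAS Stra6-/- replicate 3 (adjusted p = 0.0518) or replicate 2 of the libraries labelled VAD Stra6-/- (adjusted p = 0.0507). Those fits also drew the spread from the WT libraries. Estimating it from the 2 compared groups alone gave Egr1 an SE of 0.04, and limma then called it lower (adjusted p = 9.17e-09). The 19 epithelial markers were all lower here too, 19 of 20 RPE markers and 10 of 11 fibroblast and sclera markers were higher, and their part was not tested.

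**Figure D3:**
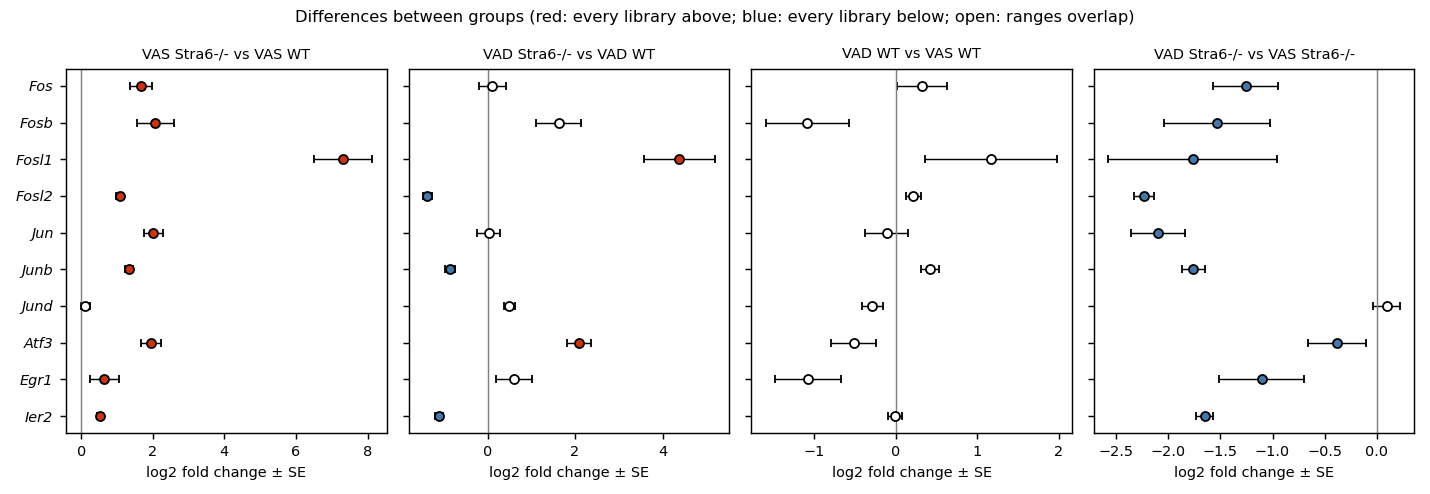
Log2 fold change (with SE, limma) of each member in the 4 comparisons, each panel with its own axis range. Red points are members with every library above, blue with every library below, and open points have overlapping ranges; VAS Stra6-/- against VAS WT holds 9 red points and the libraries labelled VAD Stra6-/- against VAS Stra6-/- hold 9 blue ones.

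The comparisons so far share groups with one another. The genotype by diet interaction, the difference between the diet effects of the 2 genotypes, includes the comparison the members were listed for. Because of that choice of members, these values are no independent support for a direction. The interaction was called below 0 for 6 members: Fosl1 (-2.94, SE 1.15, adjusted p = 0.0426), Fosl2 (-2.45, SE 0.13, adjusted p = 4.28e-12), Junb (-2.18, SE 0.16, adjusted p = 3.92e-10), Jun (-1.99, SE 0.37, adjusted p = 1.54e-04), Ier2 (-1.64, SE 0.12, adjusted p = 1.98e-10) and Fos (-1.58, SE 0.44, adjusted p = 0.00552). Of all genes, 24.8% were lower and 19.5% higher. Jund (0.38), Atf3 (0.13), Egr1 (-0.03) and Fosb (-0.45) were not called, with adjusted p from 0.0931 to 0.970. The call for Fosl1 was lost in 14 of 20 fits that left out 1 library, with adjusted p from 0.0589 to 0.0804. Without VAD WT replicates 2 and 4, 5 members were lower (29.0% of genes) and 4 higher (25.7%), and Fosl1 was not called.

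The make-up of each family was compared per kb of exon, the scale on which levels of different genes can be set side by side. Among FOS transcripts, Fos and Fosl2 took 45.9% ± 0.606 and 47.2% ± 1.59 (SD, n = 5) of the family sum in VAS WT. In VAS Stra6-/- these shares were 51.1% and 34.5%, with Fosb at 9.81% and Fosl1 at 4.57%. In the libraries labelled VAD Stra6-/-, Fosl2 held 21.9% ± 1.64 and Fos 63.7% ± 3.02. The Fosl2 shares of both groups labelled Stra6-/- lay below its range in VAS WT (45.5% to 49.5%). The order of Fos and Fosl2 depends on the length used: per kb of coding sequence Fosl2 had 74.1%, 62.0% and 46.9% in these 3 groups, and Fos 19.9%, 25.4% and 37.8%. Among JUN transcripts, Jund made up 54.2% ± 2.26 in VAS WT, 31.1% ± 0.527 in VAS Stra6-/- and 63.4% ± 3.58 in the libraries labelled VAD Stra6-/-. The share of Jun was 9.93% in VAS WT and 21.2% in VAS Stra6-/-, and that of Junb 35.8% and 47.7%. In VAD WT the share of Fosl2 ran from 23.7% to 66.8%.

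**Figure D4:**
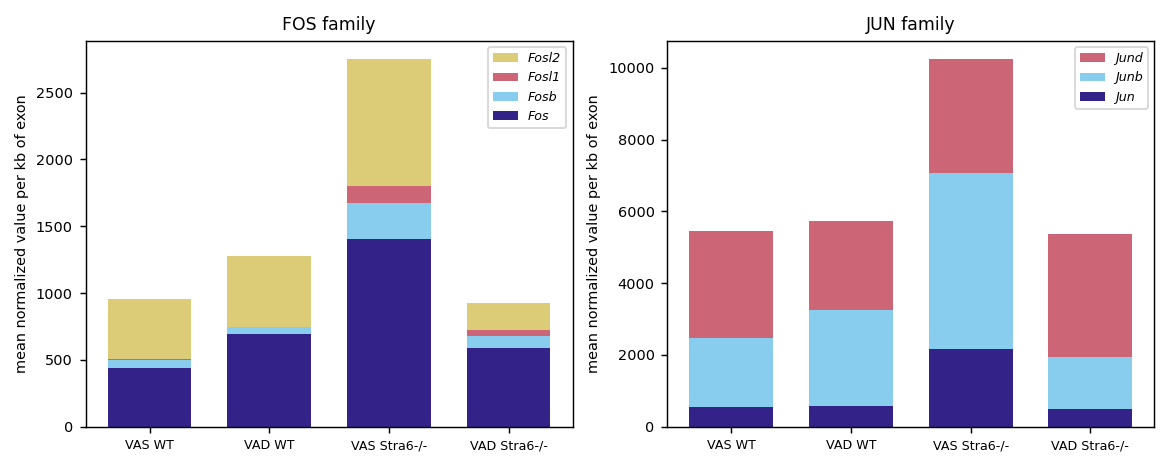
Mean normalized value per kb of exon of the FOS members (left) and JUN members (right), stacked by group, n = 5 libraries each. Both stacks are tallest in VAS Stra6-/-, and the share of Jund is lower there (31.1%) than in any other group.

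Genes around AP-1 were counted from lists chosen for their place in the pathway, with earlier results of these data known. Of 22 partners and regulators, 12 were higher and 1 lower in VAS Stra6-/- against VAS WT, with a median of 0.34; the largest were Elk4, a serum response factor partner (2.09), and the small MAF genes Maff (1.60) and Mafk (1.07). The other comparisons called 9 higher and 8 lower (the libraries labelled VAD Stra6-/- against VAD WT), 1 and 0 (diet in WT), 3 and 10 (the libraries labelled VAD Stra6-/- against VAS Stra6-/-) and 3 and 8 (interaction). For all tested genes the shares higher and lower were 15.9% and 10.8% between the VAS groups, 26.2% and 29.6% against VAD WT, 3.29% and 5.50% between the WT diets, 24.4% and 28.8% against VAS Stra6-/- and 19.5% and 24.8% for the interaction, and several of these counts are near them. Maff (1.74) and Crem, a CREB family regulator (1.72), were the highest in the first of these. Jdp2, which encodes an AP-1 repressor, had a log2 fold change of -1.54 (adjusted p = 4.31e-12) in the libraries labelled VAD Stra6-/- against VAS Stra6-/-.

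Of 36 other immediate early genes, 24 were higher and 2 lower in VAS Stra6-/- (median 0.87, with 15.9% and 10.8% of all genes). They were led by Arc (3.64), a synaptic immediate early gene, Plk3 (1.99) and the cytokine inhibitor Socs3 (1.76). Immediate early genes were already known to stand out in this comparison, so these counts are no independent support. The same holds for the counts below that use the VAS Stra6-/- or the VAS WT libraries. In the libraries labelled VAD Stra6-/- against VAD WT, 16 were higher and 10 lower (26.2% and 29.6% of all genes); Nr4a3, an orphan nuclear receptor, rose by 4.24 (adjusted p = 4.28e-06) and Klf4, an epithelial Kruppel-like factor, fell by 3.13 (adjusted p = 1.51e-11). Between the WT diets 2 were higher and 7 lower (3.29% and 5.50%), with Egr2 at -3.06 and Egr3 at -2.29. Against VAS Stra6-/-, the same libraries had 2 higher and 18 lower (24.4% and 28.8%), with Klf4 at -4.29, Arc at -3.27 and Dusp5 at -3.06, and the interaction called 6 higher and 17 lower (19.5% and 24.8%).

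Genes known as AP-1 targets in other systems were counted in the same way. In the libraries labelled VAD Stra6-/-, 10 of 20 were higher and 4 lower than in VAS Stra6-/-, at a median of 1.17 where the members' median was -1.59, and of all genes 24.4% were higher and 28.8% lower. The choice of members favours lower values for them in this comparison, so nothing is read from the difference between the medians. In the same comparison 10 of 13 macrophage and leukocyte markers and 10 of 11 fibroblast and sclera markers were higher, and their part was not tested. Il6, an inflammatory cytokine, was higher by 4.57 (adjusted p = 7.98e-05) and the matrix protease gene Mmp3 by 4.17 (adjusted p = 3.87e-08), whereas the growth factor gene Ereg was lower by 4.12. Against VAD WT 13 were higher and 5 lower (26.2% and 29.6%). In VAS Stra6-/- against VAS WT, 6 were higher and 1 lower (15.9% and 10.8%), led by the urokinase receptor gene Plaur (3.22), Hmox1 (1.34) and Cd44 (1.03). The WT diets gave 1 higher and 4 lower (3.29% and 5.50%), and the interaction 9 and 5 (19.5% and 24.8%).

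The genes most like Fos, Jun and Fosl1 were sought among 13520 genes by the mean absolute difference of centred log2 values over the 20 libraries. Nearest to Fos were Lrg1 (0.188), Ndst1 (0.216) and Tmem252 (0.217). Plk3 (0.205), Ago2 (0.231) and Dusp1 (0.244), the last a phosphatase of MAP kinases, were nearest to Jun. The genes nearest to Fosl1 were Xist (1.3203), Serpine3 (1.53) and Plaur (1.64), at distances several times larger. Tmem252 had means of 526 in VAD WT replicates 2 and 4 and of 73.3 in the other 3, the same split as Fos.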

How the data were processed

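RPE–choroid RNA of 20 samples was sequenced after oligo(dT) selection, 5 samples in each of the 4 groups named by genotype and diet. The authors aligned reads to GRCm38/mm10 with STAR 2.5.3a, counted them with RSEM 1.2.30 and deposited a signal per gene, the count divided by 1 DESeq2 1.32.0 size factor per library, neither length-scaled nor logged. In each library 100% of the values were whole multiples of the smallest one (tolerance 0.01 read). In the libraries labelled VAD Stra6-/-, replicate 1 had a step so near to 1 (1.008) that recovery was claimed for the other 19 libraries only, and it was left out of tests on reads.

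Genes with at least 5 reads in total were kept. Values were compared with limma 3.58.1 in R 4.3.3 on log2(value + 1), with group means and an intensity trend, after the design of the study's count model; a pseudocount of 1 shrinks low genes. Tests on recovered reads with edgeR 4.0.16 and DESeq2 1.42.0 were alternatives: in the libraries labelled VAD Stra6-/- against VAD WT they called 4219 and 4510 genes higher and 5721 and 5707 lower, and limma 4935 and 5569. Other alternatives changed the pseudocount, filter, scaling, spread and libraries. The test scripts were tested on simulated data.

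The members and lists were chosen with earlier results of these data known. Lists of AP-1 partners and regulators, other immediate early genes, AP-1 target genes and markers of RPE, surface epithelium and cornea, rods, cones, muscle, fibroblast and sclera, endothelium, macrophages and leukocytes and sex-linked transcripts hold genes from general knowledge; from each, up to 3 called genes of largest fold change with a mean of at least 10 in a group could be named. All members were named, and the 3 genes with a mean of at least 50 most like Fos, Jun and Fosl1. The study describes samples as biological replicates, each of 2 pooled eyecups from the same mouse. Every library labelled VAD Stra6-/- held both Xist (3570 to 4280) and the Y-linked Ddx3y (741 to 970), which goes against that description for this group. The labels do not identify animals, so p-values measure the spread between samples, which cannot be taken as the spread between animals. In limma that spread was estimated over all 4 groups, except where only 2 groups were in the fit. No pair of libraries matched within counting noise. Floors of 3 reads cover counting error only. Gene positions and exon lengths are from GENCODE vM21, promoters from RefSeq.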

Additional observations from a re-analysis of the deposited data

Results flagged for a closer look

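In 4 of the 40 sets of 5 libraries (10 members in 4 groups), the lowest or highest library stood apart by Dixon's ratio, its gap to the next library divided by the range; chance gives about 1 in 20 sets. These were Fosl1 in VAS WT (ratio 1, the only library with reads), Jund in the libraries labelled VAD Stra6-/- (0.890, replicate 5 at 7164), Egr1 in VAS Stra6-/- (0.747, replicate 3 at 5316) and Atf3 in VAS WT (0.725, replicate 5 at 235). VAD WT was not marked in this way for any member, since 2 of its libraries were apart together.

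The interaction contains the comparison on which the members were chosen, so its direction here is no independent support. It was called in limma for Fosl1 (-2.94), Fosl2 (-2.45), Junb (-2.18), Jun (-1.99), Ier2 (-1.64) and Fos (-1.58), each on the log2 scale and negative where the libraries labelled VAD Stra6-/- were lower relative to VAS Stra6-/- than VAD WT was to VAS WT. For Fosl2, Junb, Jun, Ier2 and Fos the call held with and without VAD WT replicates 2 and 4, with Jun at -1.31 and Fos at -0.78 without them. Sex-linked transcripts and tissue markers differed between the same groups, and their part was not tested.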

How the results depend on the processing

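Counts of called members stayed within 1.5 times under both pseudocounts, all filters, TMM scaling, the fit without a trend, edgeR and DESeq2. Against VAD WT, edgeR and DESeq2 called 3 higher (Fosb lost); against VAS Stra6-/-, pseudocount 4 and edgeR called 8 lower (Fosl1 added); for the interaction, pseudocount 0.5 and the fit without a trend called 5 (Fosl1 lost). The libraries of VAD WT in the fit mattered most, and their split was seen in these same data. Without its replicates 2 and 4, the members called were 7 higher (libraries labelled VAD Stra6-/- against VAD WT), 2 higher and 6 lower (WT diets) and 4 higher (interaction). Without replicates 1, 3 and 5, a choice made after seeing the data, 2 were higher and 6 lower in the first and 7 higher in the second. With only the 2 WT groups in the fit 0 were higher. The interaction has no fit on 2 groups. Over all genes, 618 were higher and 1034 lower between the WT diets, but 201 and 438 with only those groups in the fit, 3306 and 3818 without VAD WT replicates 2 and 4, 3217 and 2947 without replicates 1, 3 and 5, and 1059 higher by DESeq2. Between the VAS groups 2984 were higher and 2026 lower, and 4537 and 3671 with only those groups in the fit.

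Log2 fold changes changed sign as follows. Without VAD WT replicates 2 and 4 they were, between the WT diets, -0.48 (Fos), -0.56 (Fosl1, at 0 in 3 VAD WT libraries) and 0.0499 (Ier2), and for the interaction 0.79 (Fosb) and 1.02 (Egr1). Without replicates 1, 3 and 5 they were -1.09 (Fos), -0.23 (Fosb), -0.98 (Jun) and -0.98 (Egr1) against VAD WT, 0.77 (Fosb), -0.0603 (Fosl2), 0.90 (Jun), 0.0662 (Jund), 0.48 (Atf3) and 0.51 (Egr1) between the WT diets, and -0.86 (Atf3) for the interaction. On recovered reads, edgeR and DESeq2 gave -0.26 and -0.23 (Fos) and -0.24 and -0.22 (Jun) against VAD WT, 0.13 and 0.13 (Jun) and 0.0015 and 0.0013 (Ier2) between the WT diets, and -0.12 and -0.10 (Atf3) for the interaction; edgeR gave -0.0090 for Egr1 against VAD WT. The cause was not tested.

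Leaving out each library in turn gave 0 to 2 members higher and 0 to 4 lower between the WT diets (0 higher without VAS WT replicate 1, 3 or 4, 2 higher without VAD WT replicate 2, 4 lower without VAD WT replicate 4) and 0 to 1 higher for the interaction. Sign changes occurred for Fos (-0.14 to 0.41) and Jun (-0.15 to 0.28) against VAD WT, Jun (-0.37 to 0.0610) and Ier2 (-0.0663 to 0.0367) between the WT diets, and Fosb (-0.88 to 0.0497), Atf3 (-0.14 to 0.42) and Egr1 (-0.32 to 0.37) for the interaction.

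Samples with the same number shared only a number: over 30 pairs of groups and numbers their deviations correlated from -0.13 to 0.09, with 0 above 0.1, and 5 libraries matched their own number best. A replicate block left every count of called members as it was (8 higher between the VAS groups, 7 lower against VAS Stra6-/-).

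Coding length from GENCODE, chosen after seeing the data in place of the planned RefSeq protein length, which was not run, gave Fosl2 74.1%, 72.3%, 62.0% and 46.9% of the FOS sum and Jund 48.4%, 38.8%, 25.1% and 57.2% of the JUN sum in VAS WT, VAD WT, VAS Stra6-/- and the libraries labelled VAD Stra6-/-. A count of 0 for Fosl1 allows a value of up to 4.26.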
